A study of Mus musculus with 6 samples.

Results

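The genes described here are the 10 that make and load peptides for MHC class I molecules: B2m, Tapbp, Tapbpl, Tap1, Tap2, Psmb8, Psmb9, Psmb10, Erap1 and Calr. They were chosen by name, and all 10 had a probe set that maps to 1 gene symbol, out of 19938 genes measured. RNA came from adult forebrain cortex of C57BL/6 mice, with 3 animals labelled Dicer KO and 3 littermate controls, each on 1 Affymetrix array. The Dicer KO animals have the genotype CamKII-Cre/+;Dicer flox/flox, in which Cre under the CamKII promoter is meant to delete Dicer, the nuclease that releases mature microRNAs, from excitatory forebrain neurons. Controls are either CamKII-Cre/+;Dicer flox/+, which carry Cre and 1 floxed allele, or +/+;Dicer flox/flox, which lack Cre, and no label tells them apart. The labels count each array as a biological replicate. The p-values of the fits over all genes rest on the spread among these 6 animals, drawn toward the spread typical of all genes.

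Class I molecules show fragments of a cell's own proteins on its surface. The proteasome cuts proteins into peptides, and under interferon its constitutive catalytic subunits are replaced by inducible ones, which gives the immunoproteasome. The TAP transporter carries the peptides into the endoplasmic reticulum, where an aminopeptidase trims them and chaperones hold the heavy chain and beta-2 microglobulin open for loading. In brain, neurons express class I genes at low level, microglia and vessel cells express more, and class I molecules on neurons have been linked to synapse remodelling.

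None of the 10 genes passed the threshold over all genes, an adjusted p under 0.05 in limma, which 0.281% of all genes passed. The groups nevertheless separated without overlap at 5 of the 10. Tapbp, Tap1 and Tap2 were higher in every array labelled Dicer KO than in any control, as was the case for 9.3% of all genes. Psmb10 and Calr were lower in every one of them, as was the case for 11% of all genes. The same 5 genes had an unadjusted p under 0.05, against 14.4% of all genes. Without labelled KO array 2 or without control array 2, 3 did so, against 11.1% and 12.5% of all genes. Over the 10 genes the median difference was 0.18 on the log2 scale, against -0.0092 over all genes, with 7 genes above 0 and 3 below. The genes therefore did not share a direction, and without labelled KO array 3 their median difference was 0.043.

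**Figure D1:**
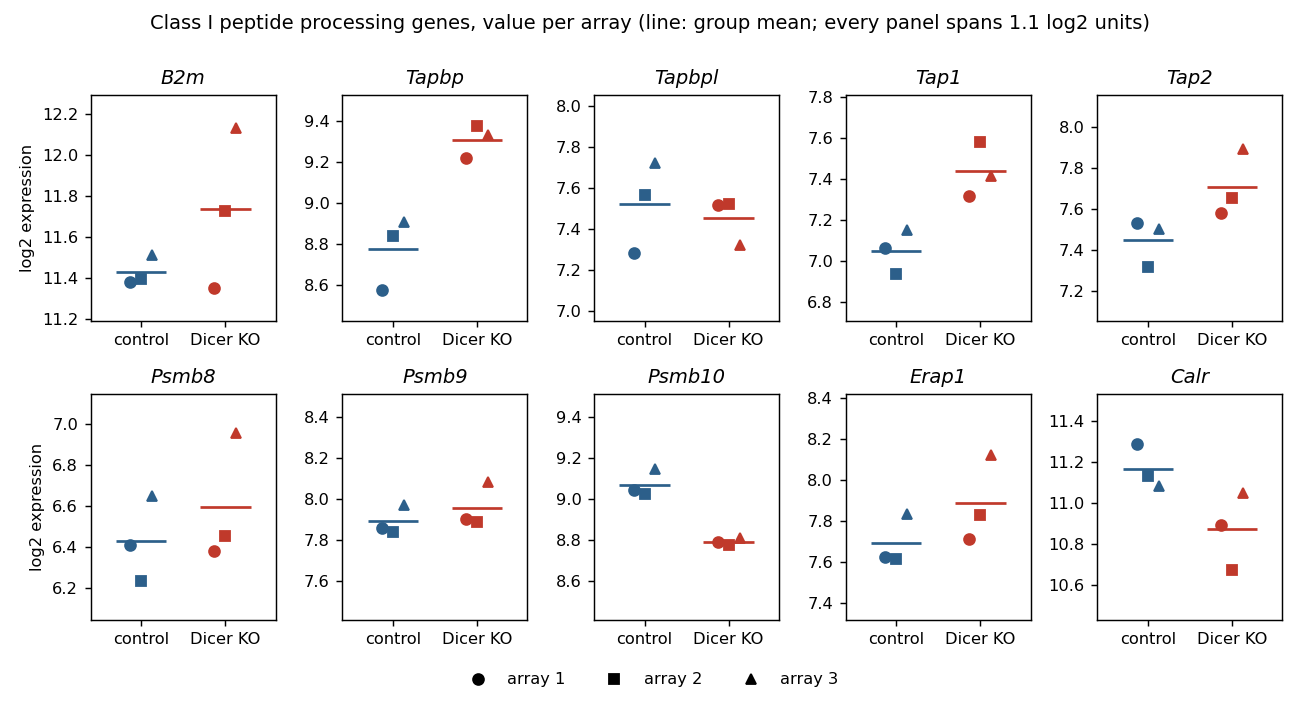
Log2 expression of each of the 10 genes (vertical axis) in the 3 control arrays (blue) and the 3 arrays labelled Dicer KO (red); symbols give the array number and lines the group means, and every panel spans the same height. Tapbp, Tap1, Tap2, Psmb10 and Calr show groups that do not overlap, and B2m is spread from 11.35 to 12.13 in the arrays labelled Dicer KO.

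Several facts about the arrays bear on these values. Dicer1 itself was 0.39 ± 0.087 (SE) higher on the log2 scale in the arrays labelled Dicer KO (limma adjusted p = 0.102). Whether its probe set reads the deleted exons, and so whether the labels hold, was not examined. Labelled KO array 3 had the highest microglia and macrophage markers, whose mean over 17 genes lay 0.78 above the control mean, against -0.057 and -0.16 in labelled KO arrays 1 and 2 and -0.16 to 0.21 in the controls. In whole cortex, a change in the number of cells of a type and in RNA per cell cannot be told apart. Control array 1 held more olfactory bulb transcripts than the other arrays, with 13 markers averaging 0.92 above the control mean. The Y-linked gene Eif2s3y read above 9 in labelled KO arrays 1 and 3 and control array 2 and below 4.5 in the others, so the animals' sexes were mixed within both groups. Markers of cortical excitatory neurons were present: the glutamate transporter gene Slc17a7 read 12.06 to 12.37 and the kinase gene Camk2a 12.65 to 13.25 in the 6 arrays.

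The start of some of these genes holds letters known from class I control, so 4 windows are shown before the values. Windows of 300 bases, from 250 before to 50 after each start site, were taken from RefSeq (GRCm38.p6) and matched 8 of the 10 genes, all but Tap2 and Tapbpl. Each window was searched on both strands for 2 copies of GAAA set 2 bases apart, the core of the interferon-stimulated response element (ISRE), for TGACG, the core of the X2 box, and for CCAAT, which read backwards is the core of the Y box. The X2 and Y boxes belong to the module through which RFX proteins, NF-Y and NLRC5 act on class I genes. B2m and Erap1 are printed because their windows hold the ISRE core, Tap1 because its window is also that of Psmb9, and Tapbp because it had the largest difference of the 10. All run 5′ to 3′ on the gene's strand, and capitals mark matches to any of the 3 motifs, which do not overlap one another here.
B2m, chr2:122147437-122147736, plus strand: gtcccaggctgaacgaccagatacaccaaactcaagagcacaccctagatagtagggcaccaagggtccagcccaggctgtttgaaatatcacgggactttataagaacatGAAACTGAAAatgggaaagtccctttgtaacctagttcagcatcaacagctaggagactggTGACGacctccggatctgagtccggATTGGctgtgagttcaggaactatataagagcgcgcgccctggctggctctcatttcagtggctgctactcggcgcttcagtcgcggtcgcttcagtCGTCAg
Erap1, chr13:74639603-74639902, plus strand: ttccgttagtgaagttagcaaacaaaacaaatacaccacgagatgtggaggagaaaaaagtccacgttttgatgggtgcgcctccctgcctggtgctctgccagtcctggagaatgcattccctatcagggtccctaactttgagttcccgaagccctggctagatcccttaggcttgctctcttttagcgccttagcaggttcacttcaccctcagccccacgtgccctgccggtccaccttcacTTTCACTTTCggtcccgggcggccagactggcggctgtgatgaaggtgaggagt
Tap1, chr17:34187306-34187605, plus strand: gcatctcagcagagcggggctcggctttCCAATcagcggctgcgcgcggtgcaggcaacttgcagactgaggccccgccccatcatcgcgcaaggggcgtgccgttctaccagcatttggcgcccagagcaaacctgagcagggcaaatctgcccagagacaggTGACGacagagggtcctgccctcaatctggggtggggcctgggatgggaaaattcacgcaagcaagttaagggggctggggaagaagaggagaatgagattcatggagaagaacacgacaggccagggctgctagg
Tapbp, chr17:33919228-33919527, plus strand: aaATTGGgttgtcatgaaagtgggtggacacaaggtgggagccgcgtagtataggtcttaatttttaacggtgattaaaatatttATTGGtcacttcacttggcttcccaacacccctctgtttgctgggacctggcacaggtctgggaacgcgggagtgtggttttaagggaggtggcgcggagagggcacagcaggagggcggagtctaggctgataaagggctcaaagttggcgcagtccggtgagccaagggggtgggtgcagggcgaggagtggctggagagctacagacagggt

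In the B2m window, GAAACTGAAA begins 139 bases before the start site, TGACG 78 bases before it and a backward CCAAT 53 bases before it. A second TGACG, read backwards, lies after the start site. The Erap1 ISRE match, read backwards, begins 4 bases before the start site and runs across it. The ISRE core was found in 2 of the 8 windows, and 3.44% of 32851 mouse promoter windows of this length hold it. Tap1 and Psmb9 lie head to head, and their windows share 275 bases, so the TGACG and CCAAT marked for Tap1 are the same letters that stand in the Psmb9 window. TGACG was found in 3 of the 8 windows, those of B2m, Tap1 and Psmb9, against 20.8% of all windows. CCAAT was found in 5, including both matches of Calr, against 37.4%. The Psmb8 and Psmb10 windows held none of the 3 motifs. Matches of this kind describe the sequence and are not evidence of binding.

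B2m encodes beta-2 microglobulin, the light chain of every classical class I molecule. Its log2 expression was 11.35, 11.73 and 12.13 in labelled KO arrays 1, 2 and 3 and 11.38, 11.40 and 11.51 in the controls. Labelled KO array 1 lay below all controls while arrays 2 and 3 lay above them, so the groups overlapped. The mean was 11.74 ± 0.39 against 11.43 ± 0.072 (SD, n = 3 each), a difference of 0.31 ± 0.17 (SE; 95% interval -0.082 to 0.69; limma adjusted p = 0.469). With labelled KO array 3 left out the difference was 0.11, and with labelled KO array 1 left out it was 0.50. Array weights, which count arrays with larger residuals less, took it to 0.031.

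Tapbp encodes tapasin, which bridges the TAP transporter and the heavy chain and edits the peptides that are bound. It read 9.22, 9.38 and 9.33 in the arrays labelled Dicer KO against 8.57, 8.84 and 8.90 in the controls. All 3 labelled KO values lay above the highest control, and they differed from each other by less than the controls did. The difference was 0.54 ± 0.11 on the log2 scale (SE; 95% interval 0.29 to 0.78), which is 1.45-fold, with a limma adjusted p of 0.0795, rank 187 of 19938 genes by p. It lay between 0.44 and 0.60 with any 1 array left out, with an adjusted p of 0.0891 to 0.224. Tapbp passed the threshold when the dimmer genes were left out of the fit (limma adjusted p = 0.0479) and with array weights (limma adjusted p = 0.0185). Those fits called 178 and 1116 of all genes, against 56 in the main fit. It also passed with the array number as a replicate block (limma adjusted p = 0.0445). Median centring gave it a limma adjusted p of 0.11, and a Y-linked transcript as covariate 0.201. A further 2 probe sets that list Tapbp also list another gene and were left out.

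Tapbpl encodes TAPBPR, a tapasin relative that edits peptides outside the loading complex. It read 7.52, 7.52 and 7.32 in the arrays labelled Dicer KO and 7.29, 7.57 and 7.72 in the controls. These overlap, and the difference of -0.070 ± 0.12 (SE; 95% interval -0.35 to 0.21) is smaller than its error. Its sign turned without control array 3, when it was 0.029.

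Tap1 and Tap2 encode the subunits of the peptide transporter. Tap1 read 7.32, 7.58 and 7.42 in the arrays labelled Dicer KO against 7.07, 6.94 and 7.15 in the controls. All labelled KO values were above all controls, and the difference of 0.39 ± 0.10 (SE; 95% interval 0.16 to 0.62; 1.31-fold) had a limma adjusted p of 0.139. It lay between 0.32 and 0.45 with any 1 array left out, and its unadjusted p was under 0.05 in all 6 of those fits.

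Tap2 read 7.58, 7.66 and 7.89 against 7.53, 7.32 and 7.51. The groups were separate by a narrow margin between labelled KO array 1 and control array 1. The difference was 0.26 ± 0.11 (SE; 95% interval 0.012 to 0.50; 1.20-fold; limma adjusted p = 0.324), and its unadjusted p was under 0.05 in 2 of the 6 fits with 1 array left out. Without labelled KO array 3 the difference was 0.17.

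Psmb8, Psmb9 and Psmb10 encode the 3 inducible catalytic subunits of the immunoproteasome. Psmb8 read 6.38, 6.45 and 6.95 in the arrays labelled Dicer KO and 6.41, 6.24 and 6.65 in the controls. Array 3 was the highest of its group on both sides, and the groups overlapped. The difference was 0.16 ± 0.16 (SE; limma adjusted p = 0.714), and without labelled KO array 3 its sign turned, to -0.015. Psmb9 read 7.90, 7.89 and 8.08 against 7.86, 7.84 and 7.97. That is a difference of 0.068 ± 0.091 (SE; 95% interval -0.14 to 0.27), within its error, and without labelled KO array 3 it was 0.0054.

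Psmb10 went the other way. It read 8.79, 8.78 and 8.81 in the arrays labelled Dicer KO against 9.04, 9.02 and 9.15 in the controls. The labelled KO values lay close together, with an SD of 0.017, and all below the lowest control. The difference was -0.28 ± 0.081 (SE; 95% interval -0.46 to -0.095; 1.21-fold lower; limma adjusted p = 0.174). It stayed between -0.30 and -0.24 with any 1 array left out, with an unadjusted p under 0.05 in all 6 fits. It passed the threshold over all genes with array weights (limma adjusted p = 0.0477), a fit that called 1116 of all genes.

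Each inducible subunit takes the place of a constitutive one: Psmb8 that of Psmb5, Psmb9 that of Psmb6 and Psmb10 that of Psmb7. The log2 ratio within an array is not moved by a shift common to all values of that array, so it was compared between the groups, relative to the control mean. Scaling that differs with the level of a gene can still move it. Psmb8 to Psmb5 was 0.21, 0.053 and 0.88 in labelled KO arrays 1, 2 and 3 and -0.094, -0.046 and 0.14 in the controls. Labelled KO array 2 fell within the range of the controls. The mean difference was 0.38 with all arrays and 0.13 without labelled KO array 3. Psmb9 to Psmb6 was 0.21, 0.048 and 0.29 against 0.031, 0.12 and -0.15, a mean difference of 0.18, and of 0.11 without control array 3. Psmb10 to Psmb7 was -0.25, -0.42 and 0.085 against 0.018, -0.0097 and -0.0080, a mean difference of -0.19, and there labelled KO array 3 lay above the controls while arrays 1 and 2 lay below. Without labelled KO array 2 it was -0.080. The exact two-sided permutation test gave p = 0.2, 0.2 and 0.4 for the 3 ratios, 0.3, 0.3 and 0.4 adjusted over them, where 0.1 is the smallest p that 3 against 3 arrays allow. Psmb5 itself was at -0.22 ± 0.11, Psmb6 at -0.12 ± 0.12 and Psmb7 at -0.086 ± 0.12 (SE), none past the threshold.

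**Figure D2:**
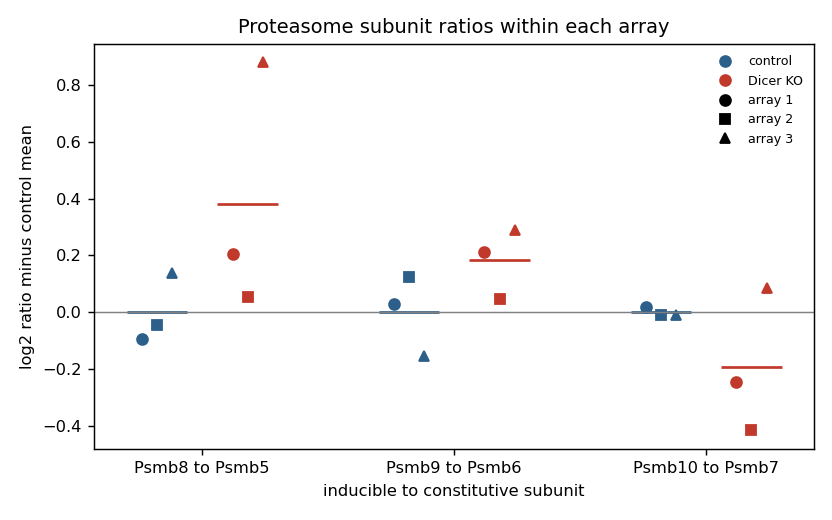
Log2 ratio of each inducible proteasome subunit to the constitutive subunit it replaces, minus the control mean (vertical axis), in the control arrays (blue) and the arrays labelled Dicer KO (red); symbols give the array number and short lines the group means. The ratio of Psmb8 to Psmb5 reaches 0.88 in labelled KO array 3, and that of Psmb10 to Psmb7 is lowest in labelled KO array 2, at -0.42.

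Erap1 encodes the aminopeptidase that trims peptides in the endoplasmic reticulum. It read 7.72, 7.83 and 8.12 in the arrays labelled Dicer KO and 7.62, 7.61 and 7.84 in the controls. Labelled KO array 3 stood above the rest and the other two lay within the range of the controls. The difference was 0.20 ± 0.12 (SE; 95% interval -0.078 to 0.47; limma adjusted p = 0.515), and without labelled KO array 3 it was 0.081.

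Calr encodes calreticulin, a calcium-binding chaperone of many glycoproteins that also sits in the class I loading complex. Its log2 expression was 10.89, 10.67 and 11.05 in the arrays labelled Dicer KO against 11.29, 11.13 and 11.08 in the controls. Every labelled KO value was below every control, with labelled KO array 3 only just so. The difference was -0.29 ± 0.11 (SE; 95% interval -0.55 to -0.038; 1.23-fold lower; limma adjusted p = 0.280). Leaving out labelled KO array 2 gave -0.20, and leaving out array 3 of that group -0.38.

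**Figure D3:**
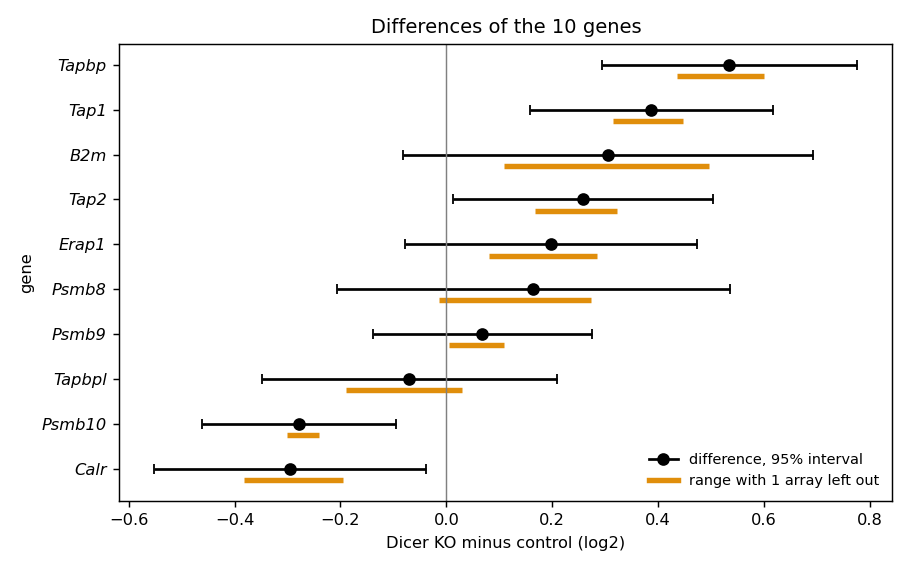
Dicer KO minus control difference in log2 units (horizontal axis) for the 10 genes (vertical axis); black points and bars are the difference and its 95% interval, and orange bars span the differences found with each array left out in turn. Tapbp is farthest above 0, at 0.54, Psmb10 and Calr are below 0 throughout, and the orange bars of Psmb8 and Tapbpl cross 0.

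Position was not used to choose the genes. Of the 10, Tapbp, Tap1, Tap2, Psmb8 and Psmb9 lie on chromosome 17 in the mouse MHC, and Psmb9, Tap1, Psmb8 and Tap2 stand next to each other there. All 5 had differences above 0, with a median of 0.26. The other 17 measured genes between Tapbp and Tap2 had a median of -0.023, 8 of them above 0. Groups were separate and higher at 2 of these 17 and separate and lower at 2, against 9.3% and 11% of all genes. Among the 5 on chromosome 17 the counts were 3 and 0. Of the 5 genes elsewhere, B2m on chromosome 2 and Erap1 on chromosome 13 were above 0, while Tapbpl on chromosome 6 and Psmb10 and Calr, both on chromosome 8, were below.

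The heavy chains pair with B2m, and 14 of 24 listed class I and class I-like genes were measured; H2-K1 and H2-D1, the classical ones, were among those not analysed here. None passed the threshold over all genes, and the median difference was 0.039, with 10 above 0 and 4 below. Several of the 14 were dim: by mean level they lay between percentile 7.5 of all genes, at H2-M2, and percentile 51, at Mr1. H2-Q4, a nonclassical class Ib gene, read 7.11, 7.60 and 7.17 in the arrays labelled Dicer KO against 6.80, 6.84 and 6.80. Its groups were separate, with a difference of 0.48 ± 0.13 (SE; limma adjusted p = 0.144). Mr1, which presents vitamin metabolites to T cells, was at 0.29 ± 0.18 and H2-M5 at -0.17 ± 0.091 (SE). Near-identical class I genes can share probe sequence, so a value for any single heavy chain is uncertain.

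Upstream of the transporter, 9 proteasome core and activator genes had a median of -0.086, with none past the threshold, and 4 above 0. Psme1, a subunit of the interferon-inducible PA28 activator, was at 0.32 ± 0.098 and the assembly factor Pomp at -0.36 ± 0.13 (SE). Of 9 cytosolic peptidases, which trim or destroy peptides before transport, 1 passed over all genes. Dpp9, a peptidase that removes dipeptides after proline, read 8.38, 8.34 and 8.45 in the arrays labelled Dicer KO against 9.14, 9.12 and 8.98 in the controls. It fell by 0.69 ± 0.086 on the log2 scale (SE; 1.62-fold; limma adjusted p = 0.0287). The prolyl peptidase gene Prep was at -0.32 ± 0.094 and Thop1, which degrades class I peptides in the cytosol, at -0.19 ± 0.082 (SE), neither past the threshold and both separate from the controls. Of these 9 peptidases, groups were separate and lower at 3 and separate and higher at 1, against 11% and 9.3% of all genes.

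Among 11 chaperones and other partners in the endoplasmic reticulum, none passed over all genes, and the median was -0.044. Edem1, which directs misfolded glycoproteins to disposal, was at 0.49 ± 0.094 (limma adjusted p = 0.0780), Derl1, of the same disposal route, at 0.29 ± 0.083, and Bcap31, a sorting protein, at -0.32 ± 0.092 (SE). Canx, which encodes calnexin, the membrane-bound relative of calreticulin, was at 0.087 ± 0.093, and Pdia3, which encodes the loading complex oxidoreductase ERp57, at 0.017 ± 0.14 (SE), both smaller than their errors.

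The regulators of these genes and interferon signalling genes, 22 of 24 measured, had a median of 0.12; 15 lay above 0, and none passed the threshold. Nlrc5, the class I transactivator, was at 0.050 ± 0.11 and Irf1, an interferon-responsive transcription factor, at -0.077 ± 0.083, both smaller than their errors. Ifngr2, a chain of the interferon gamma receptor, was at 0.36 ± 0.11, Rfx5, an RFX protein of the X box complex, at 0.30 ± 0.094, and Rela, an NF-kappaB subunit, at 0.26 ± 0.098 (SE). These 3 had separate groups and limma adjusted p of 0.191, 0.201 and 0.268. Of the 22, groups were separate and higher at 4 and separate and lower at 2, against 9.3% and 11% of all genes. The 2 lower were Socs1, at -0.21 ± 0.099, and Ciita, at -0.14 ± 0.085 (SE).

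Interferon-induced genes, of which 22 were measured, had a median difference of 0.41, with 17 above 0. None passed the threshold. An unadjusted p under 0.05 was found for 11 of the 22, all with differences above 0, against 14.4% of all genes in either direction. Among the 19938 genes measured, 1397 had such a p and a difference above 0. Whether the interferon-induced list differs from the 10 class I genes was not tested. Ifit3, an antiviral protein, read 7.83, 8.27 and 8.58 in the arrays labelled Dicer KO against 7.08, 7.29 and 7.33, a difference of 0.99 ± 0.17 (SE; limma adjusted p = 0.0580). Iigp1, an interferon-inducible GTPase, was at 0.71 ± 0.13 and Ifit1 at 0.87 ± 0.22 (SE). The mean of the list lay 0.095, 0.38 and 0.60 above the control mean in labelled KO arrays 1, 2 and 3, against -0.069 to 0.090 in the controls. B2m, relative to its control mean, was also lowest in labelled KO array 1 and highest in array 3, whereas Tapbp and Tap1 were highest in array 2.

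**Figure D4:**
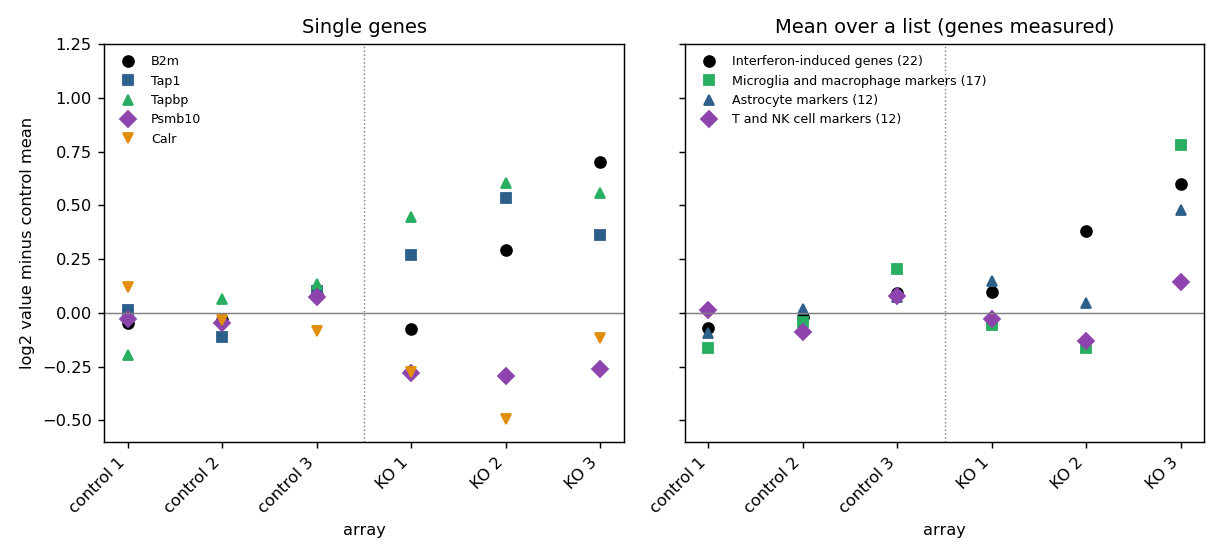
Log2 value minus the control mean (vertical axis) in each of the 6 arrays (horizontal axis), for 5 single genes on the left and as means over 4 gene lists on the right. B2m and the interferon-induced genes are both highest in labelled KO array 3, where microglia and macrophage markers reach 0.78, and Tapbp and Tap1 lie above the controls in all 3 arrays labelled Dicer KO.

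Class II presentation genes, which serve a separate route in phagocytes, had a median of 0.20 over 9 measured, 8 of them above 0 and none past the threshold. Their mean lay at -0.0029, 0.11 and 0.44 relative to the control mean in labelled KO arrays 1, 2 and 3, against -0.051 to 0.095 in the controls. It was highest in labelled KO array 3, the array highest in microglia and macrophage markers and also in astrocyte markers. The lysosomal thiol reductase gene Ifi30 was at 0.50 ± 0.19, the invariant chain gene Cd74 at 0.36 ± 0.17 and H2-DMa, an editor of class II peptides, at -0.27 ± 0.099 (SE).

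By whole-pattern likeness over the 6 arrays, each gene centred on its own mean, the genes nearest to B2m were Ccdc68, BC023105 and Parp9, an ADP-ribosyltransferase family member. Their root mean square differences from B2m were 0.064, 0.068 and 0.070, where the SD of B2m over the arrays was 0.30. Parp9 read 6.84, 7.01 and 7.41 in the arrays labelled Dicer KO against 6.76, 6.75 and 6.84. BC023105 was dim, at 3.52 to 4.22.

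Cell type markers are set beside these values. Microglia and macrophage markers had 13 of 17 genes above 0, with a median of 0.11 and array means of log2 expression of 8.09 to 9.04 in the arrays labelled Dicer KO and 8.09 to 8.46 in the controls. Within the list the complement gene C1qc was at 0.59 ± 0.22, while Tmem119, a marker of homeostatic microglia, was at -0.29 ± 0.098 (SE). Astrocyte markers had 10 of 12 above 0 (median 0.099; array means 10.67 to 11.10 against 10.53 to 10.70), with the gap junction genes Gjb6 at 0.48 ± 0.13 and Gja1 at 0.44 ± 0.12. Gfap, the intermediate filament of reactive astrocytes, named after its values were seen, was at 1.07 ± 0.33 (SE; limma adjusted p = 0.196). It read 9.10, 8.92 and 10.44 in labelled KO arrays 1, 2 and 3 against 8.34 to 8.55 in the controls. The 2 astrocyte markers below 0 were Aldh1l1 at -0.21 ± 0.16 and S100b at -0.093 ± 0.16 (SE). Endothelial markers had 7 of 12 above 0 (median 0.088; array means 8.41 to 8.59 against 8.39 to 8.55), and T and NK cell markers 6 of 12 (median -0.0024; array means 5.89 to 6.16 against 5.93 to 6.10). Excitatory neuron markers had 8 of 13 below 0 (median -0.098; array means 10.09 to 10.20 against 10.28 to 10.35). The postsynaptic gene Nrgn passed the threshold at -0.60 ± 0.088 (limma adjusted p = 0.0413), and Lamp5 was at -1.19 ± 0.20 (limma adjusted p = 0.0548). Nptx1, 1 of the 5 above 0, was at 0.41 ± 0.081 (SE; limma adjusted p = 0.0790), with separate groups. The deposited values start at 1.93, so a value above 0 does not show that a marker is expressed. Some markers were dim, such as Gzmb of the T and NK cell list, with group means of 5.05 and 5.04.

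Meningeal and fibroblast markers had 9 of 9 above 0 (median 0.28), oligodendrocyte markers 7 of 10 (median 0.16), choroid plexus markers 4 of 8 (median -0.0071), and olfactory bulb markers 0 of 13 (median -0.36). In the choroid plexus list Ttr encodes transthyretin. It read 9.85, 10.95 and 8.30 in labelled KO arrays 1, 2 and 3 against 8.18 to 8.73 in the controls. Ttr was highest in the array where Tapbp and Tap1 were highest. In labelled KO array 3 it fell within the controls, while Tapbp and Tap1 lay above theirs. Kcnj13, a potassium channel gene of the same list, was at 0.29 ± 0.12 (SE), with separate groups. The 4 markers of the list below 0 reached no lower than -0.042. The part of any of these cell types in the values of the 10 genes was not tested. For Tapbp, Tap1 and Psmb10 the difference was 0.52, 0.40 and -0.29 without labelled KO array 3. That array was highest in microglia and macrophage markers, and also in astrocyte markers and interferon-induced genes, whose means lay 0.48 and 0.60 above the control mean. Without control array 1, the array highest in olfactory bulb markers, the 3 differences were 0.44, 0.39 and -0.29. For B2m, Tap2, Psmb8, Psmb9 and Erap1 the values without labelled KO array 3 were 0.11, 0.17, -0.015, 0.0054 and 0.081, each below the value with all arrays by over 1.5 times.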

How the data were processed

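Per the labels' protocols, 200 ng of total RNA from each animal went through an Affymetrix WT cDNA kit and onto an array of its own. The deposited values are log2 expression per probe set, and RMA and limma are named, without versions, in the submitters' processing notes; how background and probe sets were handled is not given in the sources used here. Differences of dim genes are shrunk by RMA, and its normalization would hide a shift shared by most genes. No detection call was used, and precision is limited by the array number. Array medians were 7.13 to 7.22, and any pair of arrays differed in at least 35523 of 35557 rows.

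Of those rows, 21789 list 1 gene symbol, 1621 list several and were left out, and the rest are unnamed here. Symbols were updated by gene identifier (21698 rows) through a table of assembly GRCm38.p6. Where a gene had several probe sets (999 genes) the highest mean over 6 arrays was used; each of the 10 genes has 1.

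The groups were compared with limma 3.58.1 under R 4.3.3 (lmFit, eBayes, group as the only term, two-sided, Benjamini-Hochberg over 19938 genes, threshold 0.05); errors are moderated standard errors. Ratios were compared by exact permutation (scipy 1.17.1). The fit was tested on data simulated for 19938 genes from these genes' means and spreads. It called 86.8% of genes given a log2 change of 1 and 33.8% of those given 0.5. Of the genes it called, 3.91% on average had been given no change. The members, lists and naming rule (all 10 genes; called genes and up to 3 of smallest p per pathway list, plus the proteasome counterparts, regulators and loading partners; up to 2 per marker list; the 3 most like B2m) were chosen with earlier results of these data known. Marker lists overlap: Ctss is in 2 lists. Alternatives were each array left out, the array number as a replicate block, median centring, a second quantile normalization, the dimmer genes left out, averaged probe sets, a trended robust prior, array weights, a Y-linked transcript as covariate and a threshold of 0.1.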

Additional observations from a re-analysis of the deposited data

How the results depend on the processing

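No direction of the 10 genes turned under another scaling, and Tapbp, Tap1, Tap2, Psmb10, Calr, B2m, Psmb9 and Erap1 kept their direction under every alternative that gave a value. With 1 array left out Tapbpl lay between -0.19 and 0.029, turning sign without control array 3, and Psmb8 between -0.015 and 0.27, turning without labelled KO array 3. Array weights took Tapbpl to 0.012. With 1 array left out, 0 to 129 of all genes and 0 of the 10 were called. An unadjusted p under 0.05 was then found for 3 to 5 of the 10, against 11% to 16.9% of all genes. The median difference of the 10 was 0.043 to 0.28. With the dimmer genes left out, 178 of 9969 genes were called. That fit keeps 6 of the 10, with 1 called and 3 at an unadjusted p under 0.05, against 21.3% of its genes. Array weights gave 1116 calls, 2 of them among the 10, whose median difference was then 0.043. At an unadjusted p under 0.05 were 4 of the 10, against 23.7% of all genes. The Y-linked covariate gave 0 calls and 2272 genes at an unadjusted p under 0.05, 4 of them among the 10. A threshold of 0.1 gave 320 calls, 1 of them among the 10. The array number as a replicate block gave 215 calls, 1 of them among the 10 (Tapbp, limma adjusted p = 0.0445). In that fit 7 of the 10 had an unadjusted p under 0.05, B2m and Erap1 added, against 19.2% of all genes. Same-numbered arrays deviated together with correlations of 0.09, 0.17 and 0.29. Pairs with different numbers gave -0.23 to 0.094, the highest being control array 1 with labelled KO array 2. Whether the shared number marks a pairing of the animals was not tested. The 3 proteasome ratios kept their signs with each array left out, with averaged probe sets and with the block, which leaves their means as they were by construction; the other alternatives were not run on them. Averaging probe sets cannot move the 10 genes, which have 1 each. The cause of the other shifts was not tested. The 95% interval of B2m, from -0.082 to 0.69, shows what 3 arrays a group can leave undetected.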
